A study of Mus musculus with 4 samples.

Results

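The costimulatory receptors of T cells were followed through 7 genes, taken by symbol from the 31053 genes of the deposited gene list. They are Cd28 and Icos of the CD28 family, Cd27, Tnfrsf4 (OX40), Tnfrsf9 (4-1BB) and Tnfrsf18 (GITR) of the TNF receptor family, and Cd40lg, the T cell ligand of CD40. Their levels were read in 3 sets of T cell barcodes. A CD4 barcode held at least 1 UMI (unique molecular identifier, a counted RNA molecule) of Cd4 and none of Cd8a or Cd8b1, and it was called Foxp3-zero or Foxp3-positive by whether it held a Foxp3 UMI. A CD8 barcode held Cd8a or Cd8b1 and no Cd4. All 7 genes were detected in all 3 sets of every library, and all 7 passed the count minimum of 50 UMIs over the sums.

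The study compared T cells with and without the transcriptional coactivator OCA-B, encoded by Pou2af1, in female mice that were not yet diabetic. All mice carried a floxed Ocab allele (Ocabfl/fl), the controls included, and the CD4-Cre mice also carried a Cre recombinase driven by Cd4 regulatory sequence (Ocabfl/fl.CD4Cre), which is active in the precursors of CD4 and CD8 T cells alike. The labels name no strain. Pancreas libraries came from CD45+ cells sorted by flow cytometry from mice 12 weeks old, with 4 mice pooled per genotype. Pancreatic lymph node libraries came from T cells selected magnetically by CD3 from mice 8 weeks old, with 5 mice pooled per genotype. Each of the 4 groups is therefore 1 library of pooled animals, and differences between genotypes or tissues have no replicate check. Values for the 4 libraries stand below in the order pancreas control, pancreas CD4-Cre, lymph node control and lymph node CD4-Cre.

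The libraries listed 4524, 6963, 3059 and 6528 barcodes and held 20807342, 32798133, 14851217 and 27830077 UMIs. The 3 sets took 10022 barcodes, with 816, 1834, 1159 and 2434 in the Foxp3-zero CD4 set, 62, 127, 93 and 214 in the Foxp3-positive set and 431, 645, 715 and 1492 in the CD8 set. Foxp3, the lineage factor of regulatory T cells, stood at 522, 433, 524 and 540.0 CPM (a gene's UMIs scaled to the same fixed total of UMIs in every set and library) in the Foxp3-positive set and at 12.2, 10.8, 7.70 and 4.40 CPM in the CD8 set. Of the Foxp3-zero barcodes, 2.08%, 2.89%, 2.67% and 2.79% lay in clusters led by Foxp3. Of the Foxp3-positive barcodes, 85.5%, 81.9%, 77.4% and 67.8% did. That share was lower in the lymph node than in the pancreas and lower in the CD4-Cre library of each tissue. Its part in the Foxp3-positive differences between tissues or genotypes was not tested. Pou2af1, the targeted gene, measured 5.96, 0.442, 6.53 and 0.0912 CPM in Foxp3-zero CD4 barcodes and 3.55, 0, 3.85 and 0.238 CPM in CD8 barcodes, lower in the CD4-Cre library of each tissue in both sets. In Foxp3-positive barcodes it rested on 2, 5, 1 and 0 UMIs (5.83, 7.26, 1.80 and 0 CPM), and was not lower in the CD4-Cre pancreas. Those UMIs are few. Summed B cell markers in the pancreas CD4-Cre Foxp3-positive set were 164 CPM beside 5.83 in its control, and their part was not tested. Library pairs shared 21 to 70 listed barcode sequences and 3 to 24 in the 3 sets.

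T cell activation needs a signal through the antigen receptor and a second, costimulatory signal. CD28 binds CD80 and CD86 on antigen-presenting cells and signals through PI3 kinase and Grb2-family adaptors, and ICOS, which is induced after activation, binds ICOS ligand and supports follicular help. The TNF receptor family members CD27, OX40, 4-1BB and GITR bind CD70, OX40L, 4-1BBL and GITRL and recruit TRAF adaptors that activate NF-kappaB and survival genes. CD40 ligand is displayed mainly by helper T cells and licenses B cells, dendritic cells and macrophages through CD40. These receptors are studied as modifiers of autoimmune diabetes, and GITR, OX40 and ICOS are also known for high expression on regulatory T cells.

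Tnfrsf4 and Tnfrsf18 are neighbours, and both reached their highest levels in the Foxp3-positive set, as did Tnfrsf9, Icos and Cd27 (below). On GRCm38, Tnfrsf4 spans chr4:156013843-156016612 and Tnfrsf18 spans chr4:156026164-156028895, both on the plus strand, with 9551 bases and 0 protein-coding genes between them. Tnfrsf9 lies on the same chromosome at chr4:150914562-150946102. Cd28 (chr1:60716800-60773359) and Icos (chr1:60977927-61000320) are separated by 204567 bases that hold 1 protein-coding gene, Ctla4. Cd27 lies at chr6:125232622-125237010 on the minus strand and Cd40lg at chrX:57212143-57224042. Cd27, Tnfrsf9 and Tnfrsf18 overlap annotated genes on the other strand (Vamp1, Camta1 and Gm16008), Cd27 overlaps Mir8113 and Icos overlaps Gm37039 on its own strand, and the counting across these overlaps is not given in the sources used here.

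The promoter windows of the 3 TNF receptor genes on chromosome 4 are shown because all 3 genes were higher in Foxp3-positive barcodes (below). Each runs from 250 bases before to 50 bases after a RefSeq start on GRCm38.p6, plus strand, and capitals mark a match to the NF-kappaB pattern GGG, any 5 bases, CC, searched on both strands.
Tnfrsf4 (chr4:156013445-156013744): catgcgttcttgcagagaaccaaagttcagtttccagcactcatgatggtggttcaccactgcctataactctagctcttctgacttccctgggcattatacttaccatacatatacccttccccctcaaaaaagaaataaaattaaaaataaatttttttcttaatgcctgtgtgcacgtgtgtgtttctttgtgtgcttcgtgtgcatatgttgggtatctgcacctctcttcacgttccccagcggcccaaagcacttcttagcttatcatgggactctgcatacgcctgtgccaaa
Tnfrsf18 (chr4:156026072-156026371): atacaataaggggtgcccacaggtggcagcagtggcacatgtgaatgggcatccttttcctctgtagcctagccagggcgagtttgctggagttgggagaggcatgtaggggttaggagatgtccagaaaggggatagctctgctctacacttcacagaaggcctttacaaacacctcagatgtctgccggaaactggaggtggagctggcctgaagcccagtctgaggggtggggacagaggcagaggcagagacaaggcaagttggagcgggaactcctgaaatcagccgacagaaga
Tnfrsf9, second start (chr4:150927749-150928048): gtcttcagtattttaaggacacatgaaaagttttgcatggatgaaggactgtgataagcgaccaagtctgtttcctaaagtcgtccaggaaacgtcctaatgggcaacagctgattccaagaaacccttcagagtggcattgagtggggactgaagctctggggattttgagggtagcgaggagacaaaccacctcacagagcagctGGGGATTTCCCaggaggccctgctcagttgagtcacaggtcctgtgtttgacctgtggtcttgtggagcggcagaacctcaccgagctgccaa
The Tnfrsf9 window held overlapping NF-kappaB matches beginning 43 and 42 bases before the start site, and the Tnfrsf4 and Tnfrsf18 windows held none. Windows of Cd27, which held a match, and of an upstream start of Tnfrsf9, which held none, were also searched. The pattern is common, occurring in 50.8% of 32851 windows of the same length. The octamer ATGCAAAT, the site of the Oct factors that OCA-B binds, was in none of the 5 windows and in 1.74% of all windows. These are matches of letters in a window, not measured binding.

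Foxp3-positive CD4 barcodes held more Tnfrsf9, Tnfrsf4, Tnfrsf18 and Icos than Foxp3-zero CD4 barcodes of the same library, and less Cd40lg. The fitted differences were 8.19-fold for Tnfrsf9, 7.54-fold for Tnfrsf4, 2.95-fold for Tnfrsf18 and 2.94-fold for Icos, and Cd40lg was 3.40-fold lower. Cd28 and Cd27 did not pass the test. Thus 5 of the 7 genes passed at an adjusted p below 0.05 by edgeR, 4 higher and 1 lower, where 16.3% of the 10591 genes tested passed in either direction. Their median log2 fold change was 1.56, and that of all genes was -0.03. The test summed UMIs per library and set, with the 4 libraries as replicates and as a block. Its TMM scaling placed this comparison -0.22 (log2) from the plain CPM ratio on average, which lowers the fitted values beside the ratios per library given with them.

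**Figure D1:**
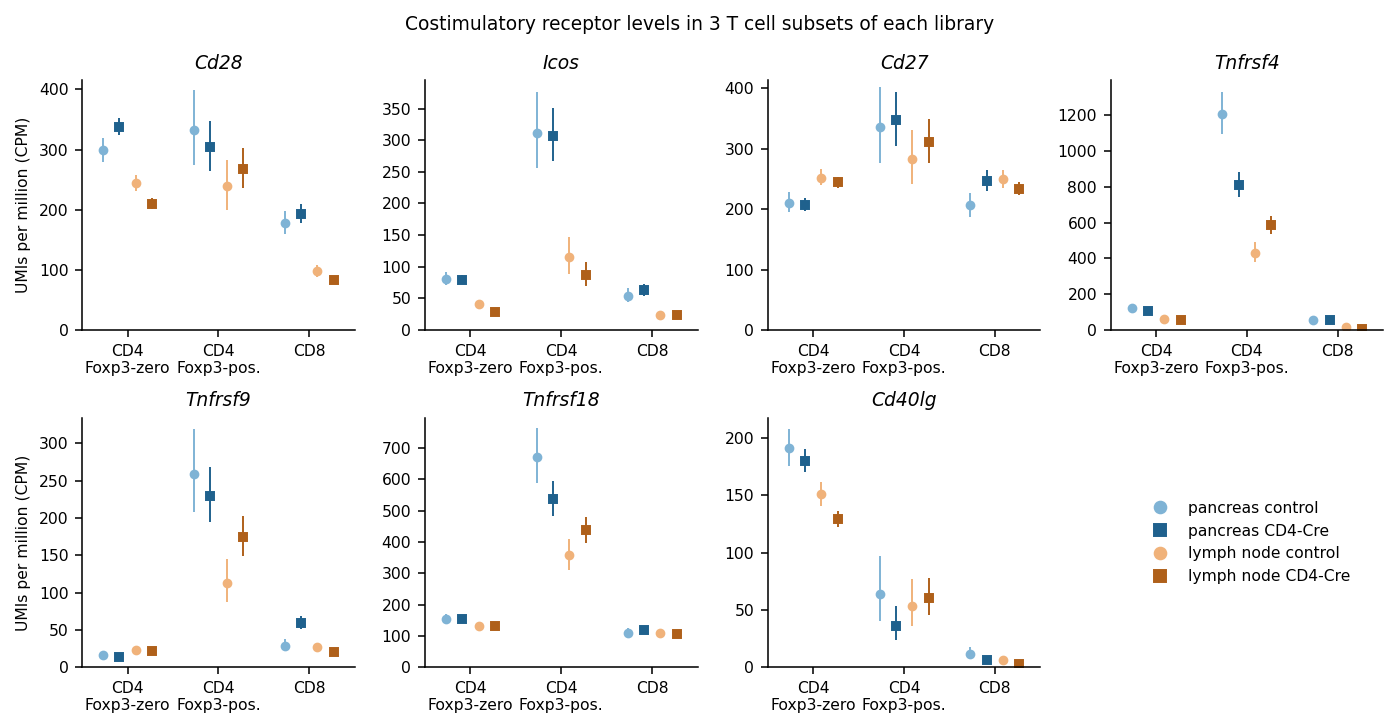
Level of each gene (CPM, vertical axes from 0, a separate scale per gene) in the 3 T cell sets, with 1 point per library and exact 95% Poisson intervals as bars. The 4 Foxp3-positive points of Tnfrsf4, Tnfrsf9, Tnfrsf18 and Icos stand above the same library's other points, and Cd40lg is lowest in the CD8 set.

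Of the TNF receptor genes, Tnfrsf4 measured 1207, 811, 431 and 585 CPM in Foxp3-positive barcodes, against 122, 104, 59.7 and 57.8 CPM in Foxp3-zero barcodes. The 2 ranges did not overlap, and the 4 Foxp3-positive values were each clear of the next lower by their intervals. The log2 ratio within a library was 3.30, 2.97, 2.85 and 3.34, and edgeR gave 2.91 (SE 0.22, adjusted p = 1.5e-06). Leaving the Foxp3-zero barcodes of Foxp3-led clusters out, an alternative added after the data were seen, gave 3.16. That removes barcodes of clusters high in Tnfrsf4 from the lower set only, so the higher value is no independent check. Tnfrsf9, induced on activated T cells and on part of the regulatory cells, measured 259, 229.5, 113 and 175 CPM against 15.9, 14.1, 23.5 and 22.5 CPM. Every Foxp3-positive value was above every Foxp3-zero value, with log2 ratios of 4.03, 4.02, 2.27 and 2.96 and an edgeR estimate of 3.03 (SE 0.28, adjusted p = 1.0e-05). Few barcodes carried these Tnfrsf9 counts, since the 5 barcodes with most UMIs held 57.3% of the Foxp3-positive UMIs in pancreas control and 33.9% in lymph node CD4-Cre.

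Tnfrsf18 measured 670.3, 538, 357 and 437 CPM in Foxp3-positive barcodes and 154, 155, 132 and 131 CPM in Foxp3-zero barcodes, again without overlap. Its log2 ratios of 2.12, 1.79, 1.43 and 1.74 gave an edgeR estimate of 1.56 (SE 0.12, adjusted p = 1.2e-06). Cd27, which is already present on resting T cells, measured 335, 347, 284 and 311 CPM against 211, 207, 252 and 244 CPM. By plain CPM all 4 libraries put Cd27 higher in the Foxp3-positive set, with log2 ratios of 0.67, 0.75, 0.17 and 0.35. The interval of the 0.17 in lymph node control was -0.08 to 0.41. TMM scaling shifted this comparison by -0.27 to -0.18 (log2) over the libraries, at least as far as that 0.17. Cd27 did not pass by edgeR (0.26, SE 0.10, adjusted p = 0.090). It passed in the DESeq2 test with 0.29 (adjusted p = 0.047). By edgeR it passed without barcodes holding Mki67 or Top2a (0.34, adjusted p = 0.019) and at Leiden resolution 0.5 (0.33, adjusted p = 0.023). The call for Cd27 thus depends on the method and on the barcodes used.

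Of the CD28 family, Icos measured 312, 307, 115 and 87.4 CPM in Foxp3-positive barcodes against 80.1, 79.5, 41.5 and 29.0 CPM in Foxp3-zero barcodes. The lowest Foxp3-positive value, in lymph node CD4-Cre, lay above the highest Foxp3-zero value, in pancreas control. Log2 ratios were 1.96, 1.95, 1.47 and 1.59, with an edgeR estimate of 1.56 (SE 0.12, adjusted p = 1.2e-06). Cd28, the receptor of resting and activated T cells, measured 332, 304, 239 and 267 CPM against 299, 338, 244 and 210.0 CPM, and these ranges overlapped. Its ratios of 0.15, -0.16, -0.03 and 0.35 took both signs, and edgeR gave -0.13 (SE 0.12, adjusted p = 0.53). Cd40lg measured 64.1, 36.3, 53.9 and 60.3 CPM in Foxp3-positive barcodes, below all 4 Foxp3-zero values of 191, 180.0, 151 and 129 CPM. The edgeR estimate for Cd40lg was -1.77 (SE 0.18, adjusted p = 1.8e-05), and the ratios per library were -1.57, -2.31, -1.48 and -1.10.

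CD8 barcodes held less Cd40lg, Tnfrsf4, Cd28 and Icos than Foxp3-zero CD4 barcodes. Cd40lg was 26.1-fold lower in the fit, Tnfrsf4 2.97-fold, Cd28 2.03-fold and Icos 1.37-fold. These 4 of the 7 genes passed, all lower, where 6.25% of genes passed as lower and 13% in either direction. The median log2 fold change of the 7 was -0.45, beside -0.0014 for all genes. Tnfrsf9, Tnfrsf18 and Cd27 did not pass.

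Cd40lg in CD8 barcodes came to 11.7, 6.53, 6.25 and 3.21 CPM, from 20 to 27 UMIs per library. All 4 values were below the lowest CD4 value of Cd40lg, and the log2 ratios were -4.03, -4.79, -4.59 and -5.33 with an edgeR estimate of -4.70 (SE 0.18, adjusted p = 1.2e-09). Tnfrsf4 measured 58.3, 56.5, 15.1 and 7.85 CPM, so that the pancreas CD8 values were close to the lymph node Foxp3-zero values and the lymph node CD8 values were the lowest of all 12. In pancreas control the 5 highest barcodes held 68.7% of these UMIs. The Tnfrsf4 ratios were -1.07, -0.87, -1.98 and -2.88, and edgeR gave -1.57 (SE 0.24, adjusted p = 5.2e-04). Cd28 measured 177, 194, 98.1 and 83.9 CPM, below every CD4 value, with ratios of -0.75, -0.80, -1.32 and -1.32 and an edgeR estimate of -1.02 (SE 0.11, adjusted p = 1.7e-05).

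Icos measured 54.2, 62.7, 23.6 and 23.3 CPM in CD8 barcodes, lower than in Foxp3-zero CD4 barcodes of the same library in 4 of 4. The edgeR estimate was -0.45 (SE 0.11, adjusted p = 0.011), and it no longer passed without pancreas control (-0.40, adjusted p = 0.054) or without lymph node control (-0.38, adjusted p = 0.081). Tnfrsf9 measured 28.9, 59.4, 26.9 and 20.9 CPM in CD8 barcodes. Its ratios of 0.86, 2.07, 0.20 and -0.10 differed in sign between libraries, and edgeR gave 0.73 (SE 0.27, adjusted p = 0.10). It passed without lymph node CD4-Cre (1.07, adjusted p = 0.047). Tnfrsf18 measured 108, 120.1, 108 and 107 CPM and Cd27 206, 246, 249 and 233 CPM, with edgeR estimates of -0.32 (SE 0.11, adjusted p = 0.082) and 0.07 (SE 0.09, adjusted p = 0.72). With no count filter, Tnfrsf9 (0.71, adjusted p = 0.0015) and Tnfrsf18 (-0.34, adjusted p = 0.017) passed by edgeR. Tnfrsf18 also passed by edgeR after thinning to 2000 UMIs (-0.39, adjusted p = 0.039).

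**Figure D2:**
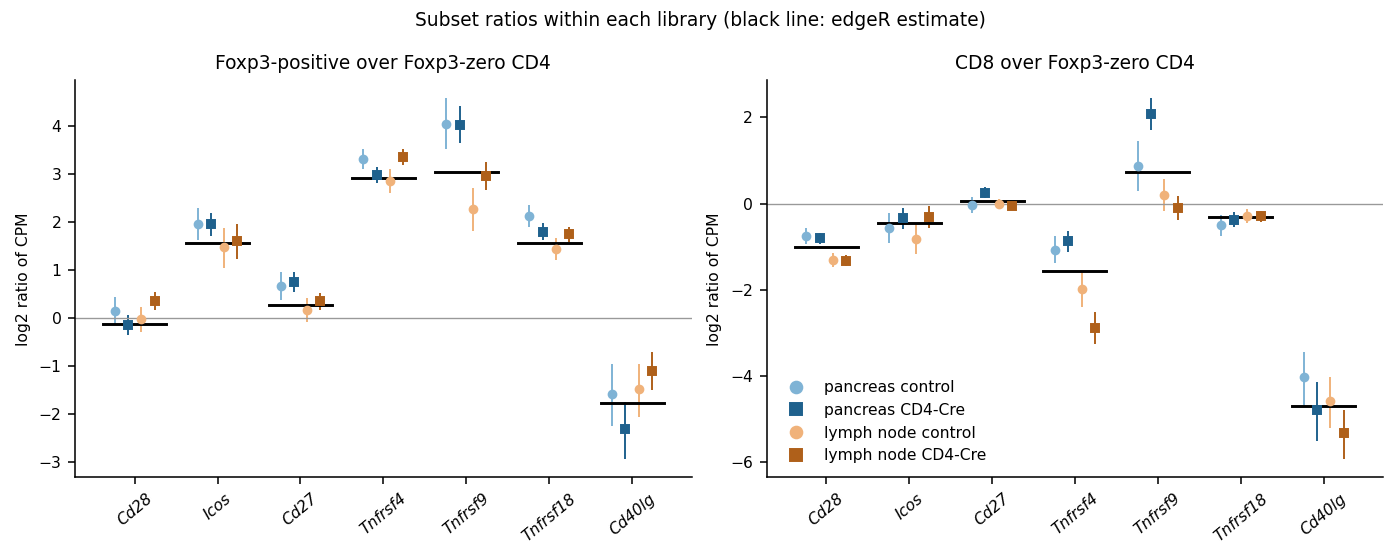
Log2 ratio of CPM within each library (points, with exact 95% binomial intervals as bars) for Foxp3-positive over Foxp3-zero CD4 barcodes and for CD8 over Foxp3-zero CD4 barcodes, with the edgeR estimate over the 4 libraries as a black line. Tnfrsf4 and Tnfrsf9 are the highest on the left, Cd40lg is the lowest on both sides, and Tnfrsf9 on the right runs from -0.10 to 2.07.

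The order of the 12 levels of each gene showed which neighbours were clear of each other by their 95% intervals. For Tnfrsf4 the 4 Foxp3-positive values were each clear of the next. For Cd28 the clear step was between the lowest pancreas CD8 value and the highest lymph node CD8 value, 177 and 98.1 CPM. For Cd27 no neighbours were clear of each other, and its 12 values ran from 206 to 347 CPM. Intervals cover counting error only.

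Tissue was compared next, but the tissues also differ in the age of the mice and in how the cells were selected, and these cannot be told apart. Icos was higher in the pancreas than in the lymph node in every set and genotype, and Tnfrsf4 likewise. Between control libraries the log2 ratio of Icos, pancreas over lymph node, was 0.95 (0.68 to 1.21) in Foxp3-zero CD4, 1.44 (0.98 to 1.91) in Foxp3-positive and 1.20 (0.79 to 1.61) in CD8 barcodes, with 95% counting intervals in parentheses. Between CD4-Cre libraries the same ratios of Icos were 1.46 (1.25 to 1.66), 1.81 (1.44 to 2.19) and 1.43 (1.13 to 1.72). For Tnfrsf4 they were 1.03 (0.82 to 1.25), 1.49 (1.25 to 1.72) and 1.94 (1.49 to 2.41) between controls. Between CD4-Cre libraries the Tnfrsf4 ratios were 0.84 (0.68 to 1.0), 0.47 (0.30 to 0.64) and 2.85 (2.43 to 3.28). Of all 42 ratios 21 were at least 1.5-fold. Among all genes with enough counts that share was 25.4% and 22% in Foxp3-zero CD4 barcodes of control and CD4-Cre, 33.1% and 31.6% in Foxp3-positive and 33.1% and 30.1% in CD8 barcodes.

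Cd28 was higher in the pancreas in CD8 barcodes, with 0.85 (0.64 to 1.06) between controls and 1.21 (1.05 to 1.37) between CD4-Cre libraries. In Foxp3-zero CD4 barcodes the ratio of Cd28 was 0.29 (0.17 to 0.41) and 0.69 (0.60 to 0.77). Tnfrsf9 ran the other way in Foxp3-zero CD4 barcodes, at -0.56 (-1.07 to -0.08) and -0.67 (-1.03 to -0.33), while it was higher in the pancreas in Foxp3-positive barcodes, at 1.20 (0.72 to 1.69) and 0.39 (0.07 to 0.72). In CD8 barcodes the Tnfrsf9 ratio was 0.10 (-0.39 to 0.57) between controls and 1.505 (1.20 to 1.81) between CD4-Cre libraries. Cd27 stayed within -0.27 and 0.24 in the 6 comparisons. The median of all genes in the CD8 comparison was 0.12 between controls and 0.22 between CD4-Cre libraries, so the CD8 ratios are that much smaller relative to other genes. These ratios have no replicate check.

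Whether a contrast between sets differed by tissue was tested with an interaction term in edgeR. The Foxp3-positive excess of Tnfrsf9 was greater in the pancreas by 1.28 (SE 0.30, adjusted p = 0.028), the only one of the 7 genes called where 2.01% of all genes were. For CD8 over Foxp3-zero CD4, Tnfrsf9 gave 1.54 (SE 0.30, adjusted p = 0.0027) and Tnfrsf4 gave 1.38 (SE 0.26, adjusted p = 0.0020) by edgeR, 2 of 7 called where 5.1% of genes were. In both the CD8 level was nearer to, or further above, the CD4 level in the pancreas than in the lymph node. The Tnfrsf9 terms share a Foxp3-zero level resting on 48 and 96 UMIs in pancreas control and CD4-Cre. The 5 highest barcodes held 60.4% and 46.9% of those. In pancreas CD4-Cre CD8 barcodes, 1 barcode held 51 of 182 Tnfrsf9 UMIs. The DESeq2 test kept 1 of the 3 calls. In CD8 barcodes the summed NK cell markers also differed by tissue, at 2826 and 2203 CPM in the pancreas and 785 and 877 CPM in the lymph node, with Tnfrsf9 itself at 62.1 and 60.6 CPM in pancreas NK-like barcodes. These markers include Nkg7, which was also a leading gene of CD8 clusters in both tissues, so the sum is not specific to NK cells. The part of these markers in the result was not tested. Cd28 for CD8 over Foxp3-zero CD4 gave 0.39 (SE 0.12, adjusted p = 0.062) by edgeR, not called, but it was called under 7 alternatives with values from 0.38 to 0.58. Tnfrsf18 for CD8 was called by edgeR only after thinning to 2000 UMIs (-0.75, adjusted p = 0.0026). Cd27 for Foxp3-positive was called by edgeR only with 2 Foxp3 UMIs for a Foxp3-positive barcode (0.65, adjusted p = 0.042).

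Between genotypes, the 7 genes mostly lay within 1.5-fold, and the largest ratio was that of Tnfrsf9 in pancreas CD8 barcodes. Of 42 ratios of CD4-Cre over control, 6 were at least 1.5-fold. There is 1 library per genotype and tissue, so the intervals cover counting error only, and no p-value was computed for these ratios. In Foxp3-zero CD4 barcodes none of the 7 reached 1.5-fold in either tissue, where 10.2% of genes did in the pancreas and 8.69% in the lymph node. The ratios there ran from -0.24 to 0.18 in the pancreas and from -0.52 to -0.01 in the lymph node, the lowest being Icos at -0.52 (interval -0.77 to -0.27). In the lymph node the median log2 ratio of all genes in this set was -0.08. Cd27, Tnfrsf4, Tnfrsf9 and Tnfrsf18 lay above that median, and Cd28, Icos and Cd40lg lay below it. Cd28 stood higher in the CD4-Cre pancreas, at 0.18 (interval 0.07 to 0.29), and lower in the CD4-Cre lymph node, at -0.22 (interval -0.31 to -0.12).

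In Foxp3-positive barcodes Tnfrsf4 and Tnfrsf18 differed in opposite directions in the 2 tissues. Tnfrsf4 was at -0.57 (interval -0.76 to -0.39) in the pancreas and 0.44 (interval 0.22 to 0.66) in the lymph node, and Tnfrsf18 at -0.32 (interval -0.56 to -0.07) and 0.29 (interval 0.04 to 0.54). These intervals leave out the spread between barcodes. The 5 highest barcodes held 41.5% and 28.9% of the Tnfrsf4 UMIs in pancreas control and CD4-Cre. In lymph node control and CD4-Cre they held 33.3% and 28.1%. Tnfrsf9 in the lymph node was at 0.63 (interval 0.20 to 1.07), from 113 to 175 CPM on 63 and 168 UMIs. That ratio was 1.26 with 2 UMIs for a CD4 or CD8 call, 0.39 without barcodes holding Mki67 or Top2a, 0.37 after thinning to 2000 UMIs and 0.22 with equal weight for each barcode. Cd40lg in the pancreas was at -0.82 (interval -1.71 to 0.08) on 22 and 25 UMIs. Tnfrsf9 in the lymph node and Cd40lg in the pancreas were the 1 of 7 at least 1.5-fold in each tissue, where 22% of genes were in the pancreas and 20.5% in the lymph node, from 62 to 214 barcodes per library. Summed B cell markers in the pancreas CD4-Cre Foxp3-positive set were 164 CPM beside 5.83 in its control, and their part was not tested.

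In pancreas CD8 barcodes Tnfrsf9 stood at 28.9 CPM in the control and 59.4 CPM in the CD4-Cre library, a 2.06-fold ratio of 1.04 (interval 0.60 to 1.5) on 57 and 182 UMIs. A single barcode held 51 of those 182 UMIs, and the ratio was 0.41 without barcodes holding Mki67 or Top2a and 0.62 after thinning to 2000 UMIs, but 1.66 with T barcodes chosen by marker UMIs. Tnfrsf4 in lymph node CD8 barcodes was at -0.95 (interval -1.47 to -0.43), from 15.1 to 7.85 CPM on 63 and 66 UMIs, and over the alternatives it ran from -1.04 to 0.05, the last after thinning to 2000 UMIs. Cd40lg was at -0.84 (interval -1.78 to 0.09) and -0.96 (interval -1.79 to -0.13) in CD8 barcodes of the pancreas and lymph node, on 20 to 27 UMIs per library. Over the alternatives Cd40lg ran from -1.63 to -0.17 in the pancreas and from -1.07 to -0.30 in the lymph node. The genes named here were 2 of 7 at least 1.5-fold in each tissue, where 14% and 9.98% of genes were. Cd27 in the pancreas was at 0.26 (interval 0.08 to 0.43). The median log2 ratio of all genes was -0.11 in lymph node CD8 barcodes, so the ratios given there are lower than relative to other genes by that amount.

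**Figure D3:**
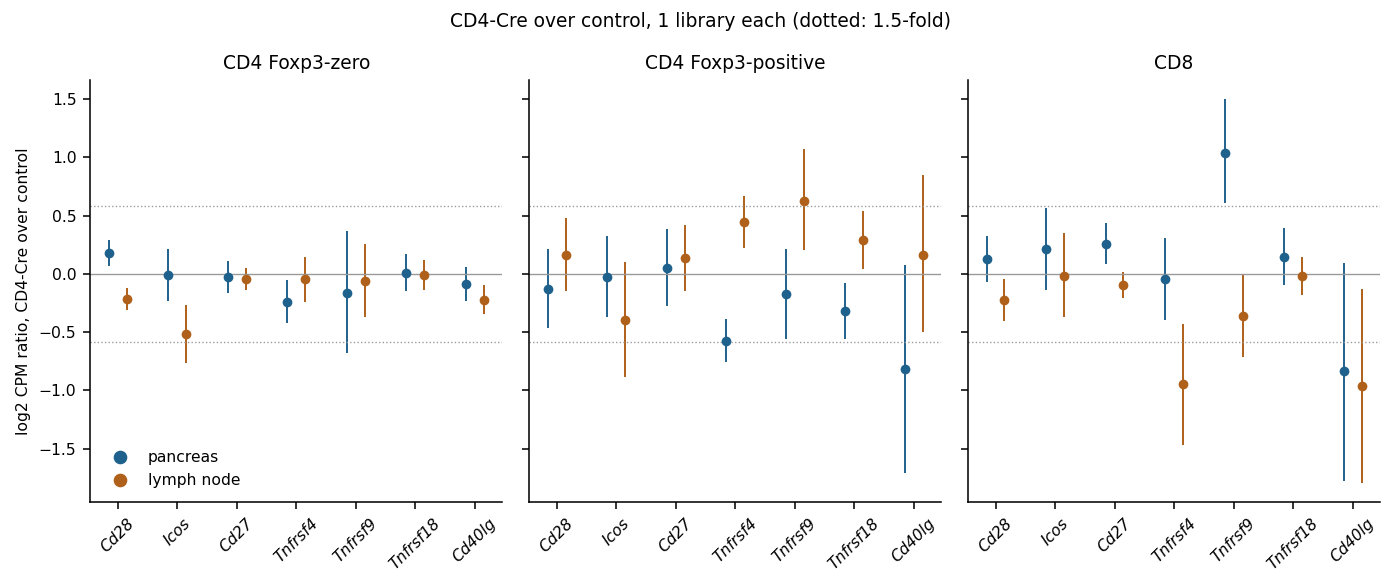
Log2 ratio of CPM, CD4-Cre over control, for the 7 genes in each T cell set, pancreas in blue and lymph node in brown, with exact 95% binomial counting intervals as bars and dotted lines at 1.5-fold. Foxp3-zero CD4 ratios lie inside the dotted lines, and Tnfrsf9 in pancreas CD8 barcodes is the highest point at 1.04.

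A term for genotype in the contrasts between sets, fitted in edgeR with the tissues as replicates, was called for 0 of the 7 genes and for 0 of 10591 genes in all (0%). At an unadjusted p below 0.05 it held 363 genes for Foxp3-positive and 83 for CD8 over Foxp3-zero CD4, 0 of the 7 among them, and DESeq2 called 0. The Icos estimate for CD8 was 0.41 (SE 0.21) and the Cd40lg estimate -0.74 (SE 0.42), so that differences of this size could not be told from 0 with 4 libraries.

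Tnfrsf4 was detected in 82.3%, 74.8%, 69.9% and 65.9% of Foxp3-positive barcodes, in 13.0%, 13.9%, 12.3% and 11.6% of Foxp3-zero barcodes and in 6.03%, 7.13%, 3.08% and 2.61% of CD8 barcodes. In pancreas B-like barcodes, which should lack it, the share was 1.59% and 0.840% at a median of 3562 and 3409 UMIs, where the T cell sets had medians of 3440.5 to 5526 UMIs. After thinning every barcode to 1000 UMIs, which left out 0 to 8 barcodes per set, the Tnfrsf4 shares were 59.7%, 42.9%, 32.3% and 32.7% of Foxp3-positive and 7.14%, 6.46%, 3.11% and 4.28% of Foxp3-zero barcodes. Tnfrsf9, at 0.114% and 0.153% in B-like barcodes, was detected in 33.9%, 26.0%, 20.4% and 25.2% of Foxp3-positive barcodes but in 2.33%, 1.74%, 3.62% and 3.53% of Foxp3-zero barcodes. Cd40lg, at 0.569% and 0.382% in B-like barcodes, was detected in 42.4%, 42.6%, 42.5% and 38.8% of Foxp3-zero CD4 and 3.71%, 2.64%, 2.94% and 1.41% of CD8 barcodes. Tnfrsf18 had a share of 17.0% and 18% in pancreas B-like barcodes, beside 83.9%, 79.5%, 77.4% and 73.8% in Foxp3-positive barcodes.

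Detection of these genes overlapped within barcodes at the same thinned depth. Among Foxp3-zero CD4 barcodes with Tnfrsf4, Icos was found in 24.1%, 18.6%, 11.1% and 5.77%, and among those without Tnfrsf4 in 3.98%, 6.09%, 3.30% and 2.88%. Tnfrsf18 was found in 29.3%, 27.1%, 19.4% and 21.2% of those with Tnfrsf4 and 11.1%, 11.9%, 10.8% and 12.5% of those without. In Foxp3-positive barcodes the corresponding Tnfrsf18 shares were 62.2%, 61.1%, 33.3% and 40% with Tnfrsf4 and 40%, 23.6%, 25.4% and 29.2% without. The share was higher beside Tnfrsf4 in all 12 of these pairs, which are descriptions of barcodes from 4 libraries.

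Pancreas T barcodes fell into 12 clusters, in which the 7 genes are described without a test because the same barcodes were clustered. Tnfrsf4 was concentrated in 2 of them. In the cluster led by Foxp3, Ikzf2 and Tnfrsf4 it measured 1048 and 897 CPM in control and CD4-Cre, and in the cluster led by 1700019D03Rik, Nrn1 and Penk it measured 931 and 679 CPM. The other 10 clusters had at most 217 CPM of Tnfrsf4. Icos was high in the same clusters, at 313 and 329 and at 301 and 224 CPM, and also in the cluster led by Itgb1 and Rora, at 153 and 187 CPM. The Itgb1 and Rora cluster had 3.06 and 2.37 CPM of Tnfrsf9 and 414 and 489 CPM of Cd28. Icos was also at 180.3 and 170.2 CPM in a small cluster of gamma-delta receptor genes led by Cd163l1 and Trdv4, where Cd27 was at 6.22 and 67.0 CPM.

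Tnfrsf9 was spread more widely over the pancreas clusters. It measured 163 and 228 CPM in the Foxp3-led cluster, 127 and 113 CPM in the cluster led by 1700019D03Rik, 137 and 116 CPM in the cycling cluster led by Ube2c and 66.1 and 104 CPM in the cluster led by the immediate early genes Nr4a1 and Egr3. Cd40lg was highest in that immediate early cluster, at 355 and 312 CPM. In the lymph node the cluster led by Nr4a1 and Egr1 likewise had 185 and 129 CPM of Cd40lg and 136 and 139 CPM of Tnfrsf9, beside 178 and 213 CPM of Tnfrsf9 in its Foxp3-led cluster. The lymph node cluster led by Lag3 and Nrn1 had 424 and 389.8 CPM of Cd28, the highest of any lymph node cluster.

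**Figure D4:**
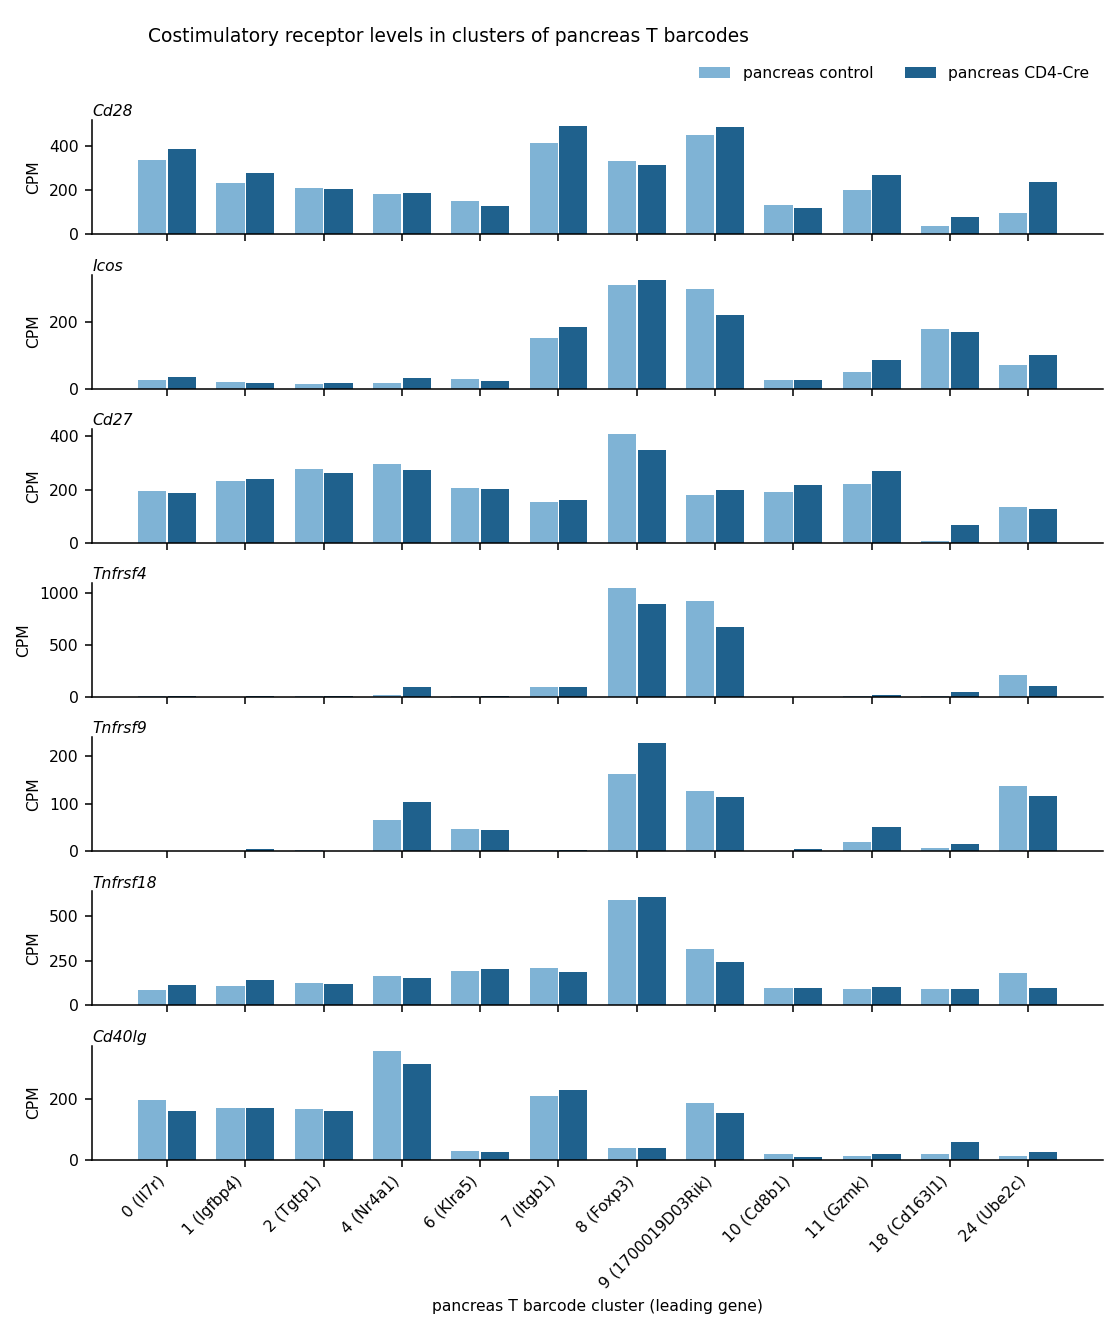
CPM of the 7 genes (vertical axes from 0, a separate scale per gene) in the 12 clusters of pancreas T barcodes, named on the horizontal axis by number and leading gene, control in light blue and CD4-Cre in dark blue. Tnfrsf4 is highest in clusters 8 and 9, Icos also in clusters 7 and 18, Tnfrsf9 also in clusters 4 and 24, and Cd40lg is highest in cluster 4.

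Outside T cells, the CD45+ pancreas libraries also held other leukocytes. NK-like barcodes had 167 and 179 CPM of Tnfrsf18 and 154 and 149.5 CPM of Cd27 in control and CD4-Cre, but 4.32 and 4.2 CPM of Tnfrsf4. Barcodes resembling group 2 innate lymphoid cells, 21 and 34 in number, had 552 and 469 CPM of Tnfrsf18 and 169.8 and 401 CPM of Icos. Plasma-like barcodes, 12 and 16 in number, had 98.8 and 109.5 CPM of Cd28. In B-like barcodes Tnfrsf18 was at 42.6 and 48.4 CPM, and each of the other 6 genes was at 4.2 CPM or less.

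The genes of the ligands, and of Cd40, were read in the same pancreas libraries. Cd40 measured 158 and 168 CPM in B-like and 88.5 and 85.2 CPM in myeloid-like barcodes, and 291 and 406 CPM in the myeloid cluster led by Fscn1, a gene of mature dendritic cells. Cd86, a ligand of CD28, measured 79.9 and 73.3 CPM in myeloid-like and 26.8 and 30.8 CPM in B-like barcodes, and 173 and 163 CPM in the Fscn1-led cluster. Cd80, the other ligand of CD28, was at 14.0 and 16.1 CPM in myeloid-like barcodes. Icosl was at 93.3 and 92.1 CPM in B-like and 44.6 and 40.1 CPM in myeloid-like barcodes, and Tnfsf9, the ligand of 4-1BB, at 18.4 and 26.5 CPM in the latter. Tnfsf4, the ligand of OX40, was at 2.33 and 1.83 CPM in T barcodes on 20 and 28 UMIs and at 1.07 and 0.550 CPM in B-like barcodes on 4 and 3 UMIs. Myeloid-like barcodes held 0 and 1 UMI of Tnfsf4, and plasma-like, NK-like and innate lymphoid barcodes held 0, where their few UMIs allow up to 31.8 CPM.

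Other genes of the pathway were counted in lists. In Foxp3-positive over Foxp3-zero barcodes, signalling proteins downstream of the 7 receptors counted 1 higher and 6 lower of 19 tested (median -0.18), with edgeR values of Grap2 -1.0 (adjusted p = 2.3e-04) and Traf1 0.94 (adjusted p = 2.3e-05). Grap2 acts in antigen receptor and CD28 signalling, and Traf1 is an adaptor of 4-1BB. NF-kappaB and survival genes counted 7 higher and 0 lower of 16 tested (median 0.49), including Nfkb2 1.05 (adjusted p = 2.0e-04), the alternative NF-kappaB subunit gene, and Tnfaip3 0.62 (adjusted p = 0.016), a feedback inhibitor, by edgeR. Other costimulatory and adhesion receptors counted 5 higher and 0 lower of 12 tested (median 0.10), led by Tnfrsf1b 2.22 (adjusted p = 4.2e-07) in edgeR, the gene of TNF receptor 2. Inhibitory receptors counted 4 higher and 2 lower of 9 tested (median 1.18), with Ctla4 3.05 (adjusted p = 2.7e-06) and Tigit 2.40 (adjusted p = 1.4e-04) higher and Lair1 -2.24 (adjusted p = 0.0014) lower by edgeR. Of the 8 ligand genes 5 were tested and 0 called by edgeR, with 2 at an unadjusted p below 0.05 and 0 by DESeq2. Across all genes 8.35% were called higher and 7.91% lower, with a median of -0.03.

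In CD8 over Foxp3-zero CD4 barcodes the signalling proteins counted 2 higher and 2 lower of 19 tested (median -0.07) and the NF-kappaB and survival genes 0 higher and 2 lower of 16 tested (median -0.10), with Birc3 -0.82 (adjusted p = 8.2e-05) by edgeR. Other costimulatory receptors counted 3 higher and 4 lower of 12 tested (median -0.18), from Tnfrsf25 -2.11 (adjusted p = 2.6e-07), the gene of death receptor 3, to Crtam 1.90 (adjusted p = 4.9e-05) and Cd226 1.75 (adjusted p = 1.2e-06) by edgeR. Inhibitory receptors counted 2 higher and 1 lower of 9 tested (median 0.18) and ligands 1 higher and 0 lower of 5 tested (median 1.27), the called one being Cd86 1.66 (adjusted p = 0.0016) in edgeR. Across all genes 6.72% were called higher and 6.25% lower.

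The genes whose pattern over the 12 sums was most like each of the 7 are named with Pearson's r on log2(CPM + 1), over 8884 genes with enough counts. The sums share 4 libraries and differ in depth, so r describes these sums and carries no p. For Tnfrsf4 they were Tfe3 (0.983), Tmbim4 (0.983) and Itm2c (0.980), for Tnfrsf18 Wwp2 (0.967), Ikzf2 (0.967) and Dgcr6 (0.966), and for Tnfrsf9 Jak3 (0.965), Epcam (0.957) and Atp5g3 (0.957). For Icos they were Hif1a (0.975), Mif4gd (0.973) and Impa2 (0.972), and for Cd28 Cdon (0.965), Ftl1 (0.959) and Tmem191c (0.958). For Cd40lg they were Trat1 (0.948), Gimap6 (0.943) and St8sia6 (0.939), and for Cd27 Txnl1 (0.944), Slc35a1 (0.941) and Ripk3 (0.941). Among the 7 themselves, the closest pair was Tnfrsf4 and Tnfrsf18 (0.935), and the least alike were Tnfrsf9 and Cd40lg (-0.046). Of the genes named for Tnfrsf18, Ikzf2 encodes Helios, a transcription factor of regulatory T cells, and of those named for Cd40lg, Trat1 encodes a T cell receptor-associated adaptor.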

How the data were processed

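Single-cell RNA was profiled in 4 libraries of mouse leukocytes, 1 per tissue and genotype. Per the labels' protocols the libraries were 10x Genomics 5-prime libraries, per the submitters' processing notes they were processed with Cell Ranger on mm10, and per the file headers the matrix software was version 3.0.0. The annotation is not given in the sources used here. The authors deposited raw UMI counts per gene and barcode. Each library pools animals of 1 group, so p-values measure the spread between these 4 libraries, which differ in tissue and genotype.

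Barcodes with at least 500 genes and at most 10% mitochondrial UMIs were kept, after removal of likely doublets (the barcodes with most simulated doublets among their neighbours, at 0.8% per 1000 barcodes). Each tissue was clustered with scanpy 1.11.5 (2000 variable genes, 30 components, Leiden resolution 1), and clusters were named from marker lists. UMIs were summed per library and T cell set, and CPM was computed over all genes. Sets were compared with edgeR 4.0.16 in R 4.3.3 (TMM scaling, quasi-likelihood test, library as block, genes with at least 50 UMIs over the 12 sums, Benjamini-Hochberg over all genes, threshold 0.05). That fit has 6 residual degrees of freedom and the interaction fits have 4. Genotype and tissue ratios carry exact Poisson or binomial intervals at 95%, and a ratio counts as 1.5-fold only with at least 20 UMIs over both libraries. PCR and sampling of cells lie outside these intervals. Gene positions come from GENCODE on GRCm38, by gene identifier, matched for 30934 of 31053 genes, and promoter windows from RefSeq on GRCm38.p6, found for 4 of the 7 genes.

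The 7 genes and the gene lists were chosen with earlier results of these data known. The named genes were all 7, in each list at most 3 called genes per comparison with the largest change, and the 3 genes most like each of the 7. The edgeR step was tested on simulated data. DESeq2 1.42.0, other filters, thinning to 2000 UMIs, other cluster resolutions and T cell definitions, other UMI minima and leaving out each library were tried as alternatives. Another 2 were added after the data were seen: Il7r, Rora and Gata3 counted against a T cell name, and Foxp3-zero barcodes of Foxp3-led clusters left out. A planned split of the T cell barcodes by another gene, and 1 gene of the signalling list, are not reported here.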

Additional observations from a re-analysis of the deposited data

Results flagged for a closer look

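The contrasts between T cell sets differed between the tissues for 3 results, by the interaction term in edgeR, with 2 libraries per tissue. For Tnfrsf9, Foxp3-positive over Foxp3-zero CD4 barcodes was 1.28 (log2) greater in the pancreas than in the lymph node. For Tnfrsf9, CD8 over Foxp3-zero CD4 barcodes was 1.54 greater in the pancreas, where the ratio was 0.86 in control and 2.07 in CD4-Cre. For Tnfrsf4, CD8 over Foxp3-zero CD4 barcodes was 1.38 greater in the pancreas. The first was not called in 5 of 15 alternatives (0.79 to 1.36), the second not with DESeq2 (1.35, adjusted p = 0.093) and the third not after thinning to 2000 UMIs (0.50, adjusted p = 0.61 by edgeR). Tissue, age and cell selection cannot be told apart in these differences.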

How the results depend on the processing

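The 12 called results reported were recomputed under 216 combinations of result and alternative. In 205 the call and its direction were the same, in 11 the call was lost, and in 0 the direction turned. The tissue difference of Tnfrsf9 between Foxp3-positive and Foxp3-zero barcodes lost its call most often, at 1.32 with DESeq2 (adjusted p = 0.083), 0.93 with 2 UMIs for a CD4 or CD8 call, 1.36 with T barcodes from marker UMIs, 1.22 thinned to 2000 UMIs and 0.79 with Il7r, Rora and Gata3 counted against a T cell name. The tissue difference for CD8 barcodes was 1.35 for Tnfrsf9 with DESeq2 and 0.50 for Tnfrsf4 when thinned, both not called. Icos in CD8 barcodes was not called without barcodes holding Mki67 or Top2a (-0.31) or with the stricter T cell name (-0.35). Leaving out the Foxp3-zero barcodes of Foxp3-led clusters kept all 12 calls. It added a call for Tnfrsf9 in CD8 over Foxp3-zero CD4 (1.01, adjusted p = 0.031 by edgeR). Barcodes were taken from the Foxp3-zero set only, and the Foxp3-led clusters were high in Tnfrsf4 and Tnfrsf9. Higher ratios of these genes over that set are therefore no independent check.

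Counts among the 7, of called genes or of ratios at least 1.5-fold, changed by more than 1.5-fold in 4 cases. Smaller changes are not listed, such as the 6 genes called by DESeq2 for Foxp3-positive over Foxp3-zero barcodes, where it called 1619 of all 10591 genes. DESeq2 left 1 tissue difference, in CD8 over Foxp3-zero CD4, where it called 215 of all 10591 genes. The count of genotype ratios at least 1.5-fold was 10 with 2 UMIs for a CD4 or CD8 call, 3 with equal weight for each barcode and 3 with a pseudocount of 10 CPM. The 2-UMI call left 33, 75, 37 and 106 Foxp3-positive barcodes. The share of all genes at least 1.5-fold under these alternatives is not given here, so the counts are not read as a result about the 7 genes. Among single-library ratios at least 1.5-fold, thinning to 2000 UMIs turned the sign of 2. Tnfrsf4, CD4-Cre over control in lymph node CD8 barcodes, went to 0.053. Cd40lg, pancreas over lymph node in CD4-Cre Foxp3-positive barcodes, went to 0.34. Sign changes of smaller ratios were not counted.

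No paired analysis was possible because each group has 1 library, and the library is already a block of the fits between sets. Leaving out a library could not be run for ratios of 1 library to another, and was not run for the interaction terms, where it leaves 1 library in a tissue or genotype. The few Foxp3-positive barcodes and the UMIs of Cd40lg in CD8 barcodes limit the precision of those values.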
